A study of Mus musculus with 12 samples.

Results

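The genes described here are 8 components of the Notch pathway, chosen by symbol: the receptors Notch1, Notch2 and Notch3, the DNA-binding factor Rbpj, and the target genes Hes1, Dtx1, Nrarp and Ptcra. Each symbol matched exactly 1 of the 48672 Ensembl gene IDs counted in every library. Their RNA was measured in iNKT cells (invariant natural killer T cells, which see lipid antigens through a receptor of limited diversity). The cells were sorted from thymi of C57Bl/6J mice aged 4 to 5 weeks. Cells that bound the tetramer and carried TCRb were taken as stage 0 (ST0), positive for CD24 and negative for CD44, or as stage 1 (ST1), negative for both. The mice were wild type (WT) or carried floxed Bcl6 alleles with a Cre transgene (written CDCre;Bcl6F/F and called Bcl6KO), and thymi of 4 to 7 mice were pooled. The labels name no promoter for the Cre and do not say whether the WT mice carried it. Each of WT ST0, WT ST1, Bcl6KO ST0 and Bcl6KO ST1 had 3 libraries. Whether replicate libraries had separate pools of mice behind them is not in the labels. The p-values therefore measure only how these libraries spread, and that spread may be technical.

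Notch receptors are cut when they bind a ligand on a neighbouring cell, and the freed intracellular part enters the nucleus, where it joins RBPJ and Mastermind proteins on target promoters and enhancers. Without it, RBPJ sits on the same sites with corepressors. In the thymus, signals through Notch1 commit progenitors to the T lineage and carry them to the checkpoint of the pre-T cell receptor, after which target genes are largely turned down in double-positive thymocytes, from which iNKT cells arise. BCL6 is a transcriptional repressor, and in mouse cortical progenitors it silences the Notch target Hes5.

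Library totals ran from 4129919 to 8038717 counts. Libraries of Bcl6KO ST0 stood apart: they had the fewest genes detected (14860 to 17734, against 18417 to 22028 in the other groups), and a single nuclear body gene, Sp100, took 10.8% to 23.9% of their counts, against at most 5.03% elsewhere. Bcl6 itself was counted at 217 to 373 CPM (counts divided by the TMM-scaled library size and multiplied by a constant) in WT ST0 and at 511 to 657 CPM in Bcl6KO ST0. At stage 1 it ranged from 4.15 to 8.77 CPM in WT and from 14.7 to 56.1 CPM in Bcl6KO. The count covers the whole gene and so checks neither the deletion nor the labels. The 10 iNKT cell markers summed to between 4661 and 7276 CPM in every library. Cd3e, Cd3d, Trac, Trbc1 and Trbc2 are among them, so the sum does not tell iNKT cells from other T cells. Of the remaining markers, Zbtb16 averaged 166 CPM in WT ST0 and 50.5 in Bcl6KO ST0, and Slamf6 875.5 and 487. Egr2 averaged 483.5 and 431 CPM in these groups, Icos 264 and 293, and Slamf1 114 and 125. Markers of double-positive thymocytes, the preceding cell type, summed to 560 to 1710 CPM in WT ST0, 212 to 606 in WT ST1, 1383 to 1493 in Bcl6KO ST0 and 466 to 977 in Bcl6KO ST1, and their part in the values below was not tested. Cd4, which iNKT cells also express, averaged 221 CPM in WT ST0, 376 in WT ST1, 604 in Bcl6KO ST0 and 725 in Bcl6KO ST1. Cd8a averaged 216 and 140 CPM in WT and Bcl6KO ST0 and Rag2 49.5 and 11.2 CPM, while at stage 1 Cd8a, Rag1, Rag2 and Dntt averaged 3.11 CPM or less in either genotype. Those of other cells a sort could hold had lower sums. These were 19.96 to 137 CPM for double-negative thymocytes, 29.1 to 174 for B cells, 11.3 to 99.2 for myeloid and dendritic cells and 44.9 to 143 for thymic epithelial cells, with Krt5 and Krt8 at 0 throughout. Endothelial and stromal markers, with Cdh5 and Pdgfra at 0 throughout, summed to 88.0 to 1493 CPM, where the highest sum came mostly from Pecam1 at 1441 CPM in Bcl6KO ST0 library 2. Col1a1 was also highest in that library, at 45.9 CPM against at most 3.18 CPM in any other, as was Col3a1 at 5.88 CPM. Kdr was at 0 and Pdgfrb at 0.569 CPM there.

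None of the 8 genes passed the test in any comparison. Notch3 was too low to be tested, and the other 7 were tested with edgeR's quasi-likelihood test, two-sided, with Benjamini-Hochberg adjustment over the 15704 genes tested at 0.05. Between genotypes at stage 0, 0 of 7 passed where 0.0191% of all tested genes did, 4 had an unadjusted p under 0.05, and DESeq2 called 3. Between genotypes at stage 1 the numbers were 0 of 7, 0% of all genes, 0 and 0. Between stages they were 0 of 7, 0.433% of all genes (0.07% higher and 0.363% lower), 2 and 2 in WT, and 0 of 7, 0.675% of all genes (0.42% higher and 0.255% lower), 2 and 0 in Bcl6KO. The genotype effect averaged over stages gave 0 of 7, 0.00637% of all genes, 3 and 1, and the stage effect averaged over genotypes 0 of 7, 3.46% of all genes (2.04% higher and 1.42% lower), 3 and 2. The test of whether the genotype effect differed between stages gave 0 of 7, 0% of all genes, 2 and 0. Of all 15704 genes, 2309 and 404 had an edgeR unadjusted p under 0.05 between genotypes at stages 0 and 1. Between stages in WT and Bcl6KO 1319 and 2577 did. The averaged genotype effect, the averaged stage effect and the difference between genotype effects gave 1714, 2873 and 1221. DESeq2 called 950, 20, 376, 1309, 450, 1495 and 130 genes in the same order. A missed threshold at this spread does not show that levels were equal, and the values themselves follow, by role.

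**Figure D1:**
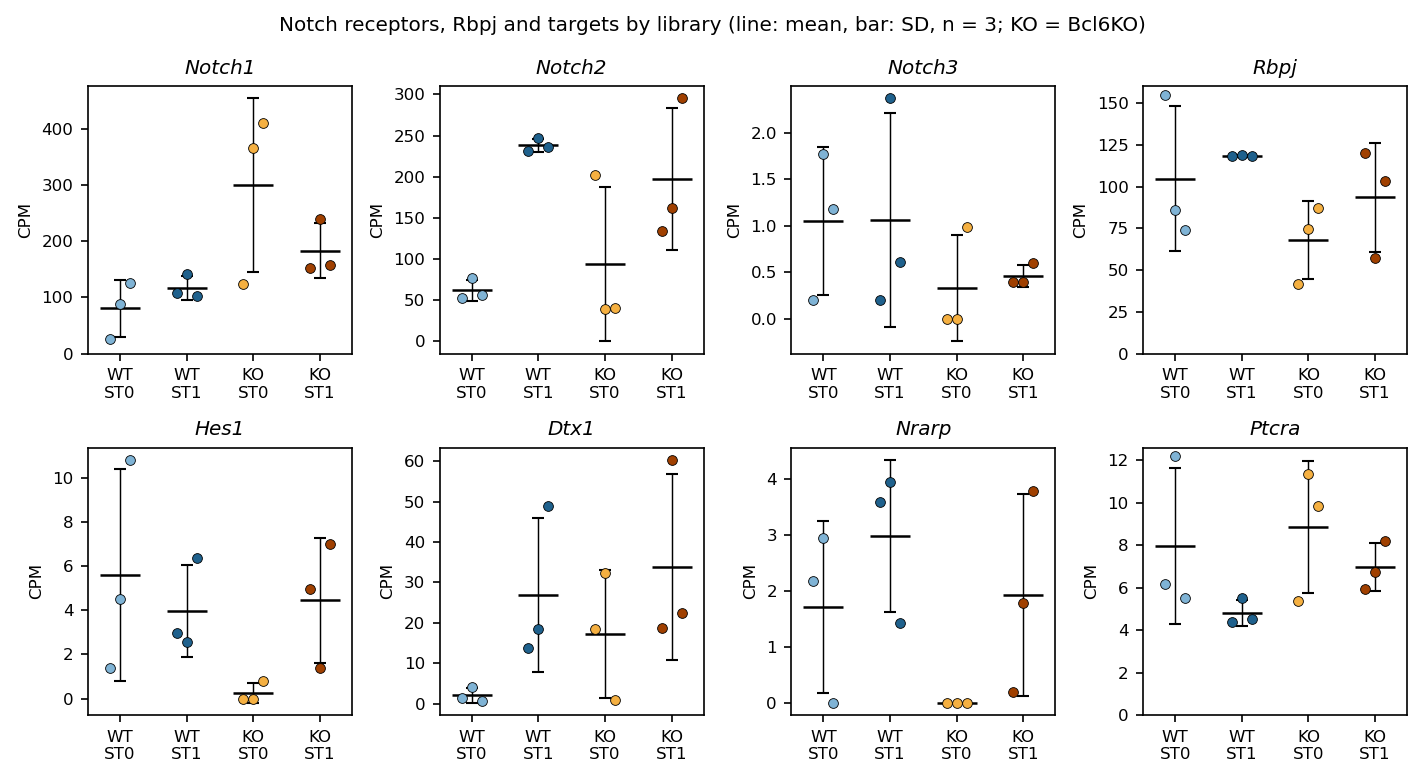
Levels (vertical axis, CPM) of the 8 genes in each library, by genotype and stage; points are libraries, lines the mean of 3 and bars the SD. Notch2 stood at 231 to 247 CPM in WT ST1, at 134 to 295 CPM in Bcl6KO ST1 and at 202 CPM in 1 of 3 Bcl6KO ST0 libraries. Hes1 and Nrarp were at or near 0 in Bcl6KO ST0.

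Notch2, the receptor used by marginal zone B cells and other lymphocytes outside the early thymus (ENSMUSG00000027878, mm10 chromosome 3, 98013527 to 98150361, plus strand), showed the clearest difference between stages. In WT ST0 it stood at 52.5, 76.0 and 55.5 CPM, and in WT ST1 at 231, 247 and 236 CPM. In Bcl6KO ST0 it stood at 202, 38.9 and 39.4 CPM, and in Bcl6KO ST1 at 134, 162 and 295 CPM. The WT stages did not overlap. In Bcl6KO, library 1 of ST0 lay above 2 of the 3 ST1 libraries, and the other 2 lay below every stage 1 library of either genotype.

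In WT the stage difference of Notch2 was 1.96 on the log2 scale (SE 0.58, a 3.88-fold higher level at ST1), with an edgeR unadjusted p of 0.00457 and an adjusted p of 0.264. In Bcl6KO it was 1.08 (SE 0.56, edgeR adjusted p = 0.366). Averaged over the genotypes it was 1.52 (SE 0.40, 2.86-fold), and the edgeR adjusted p of 0.0566 lay just short of the threshold. The difference between the stage effects of the genotypes was -0.88 (SE 0.79, edgeR adjusted p = 0.867). The genotype contrasts of Notch2 stood at 0.61 (SE 0.56) at stage 0 and at -0.27 (SE 0.55) at stage 1, with edgeR adjusted p of 0.663 and 1.

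In Bcl6KO the Notch2 stage difference moved most with library 1 of ST0. Without it, the stage difference was 2.34 in Bcl6KO (edgeR adjusted p = 0.0233, range over the alternatives 0.0233 to 0.732), 1.97 in WT (0.0310, range 0.0248 to 0.729) and 2.16 on average (0.00170, range 0.00170 to 0.136), so that all of these passed. With that library kept, DESeq2 called the WT difference (adjusted p = 0.0439) and the average (0.00679). The WT difference also passed with only the WT groups in the edgeR fit (0.0248), and the average with no filter on low counts (0.00960). The genotype difference at stage 0 turned from 0.61 to -0.66 without it. That library had the lowest Sp100 share of its group, 10.8%, and the most genes detected, 17734. Under every alternative setting run (17 for each genotype, 16 for the average) the log2 stage difference of Notch2 was positive in each genotype and on average.

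**Figure D2:**
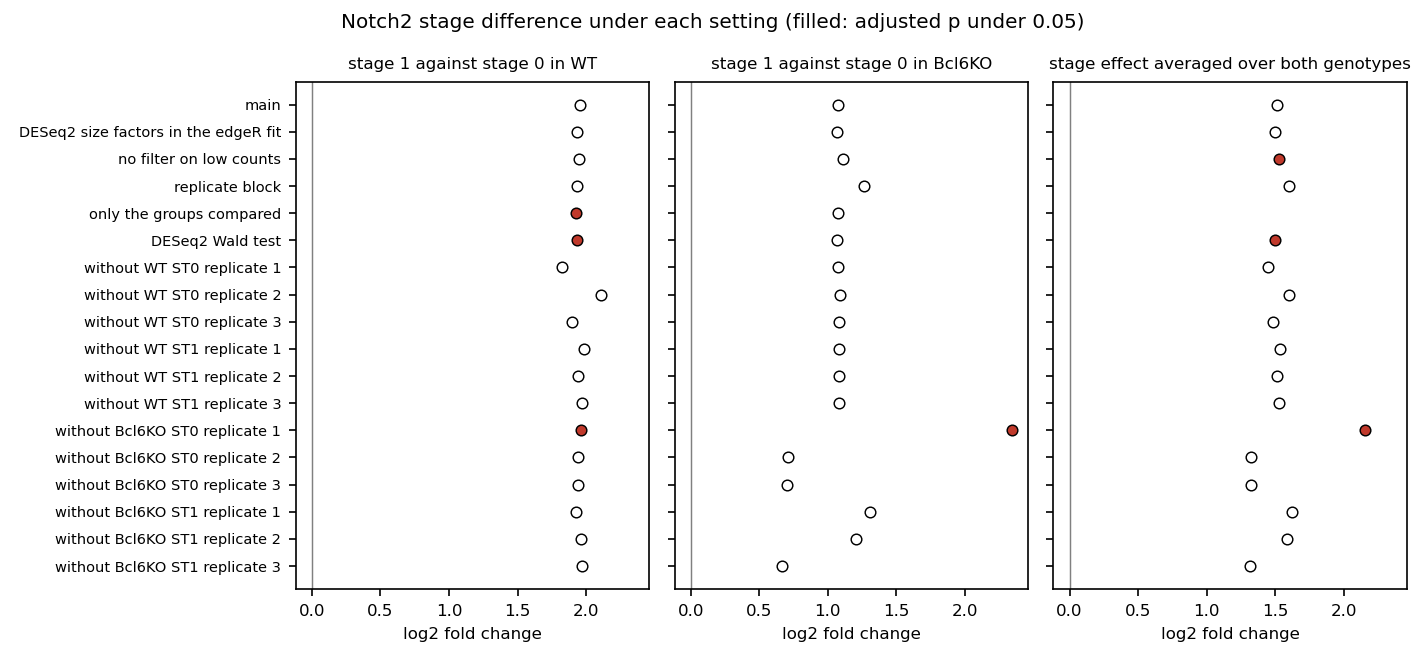
Log2 fold change of Notch2 between stages (horizontal axis) under the setting reported and each alternative (rows), in WT, in Bcl6KO and averaged; filled points passed at an adjusted p under 0.05. Every point is above 0, and leaving out Bcl6KO ST0 library 1 moved the Bcl6KO value from 1.08 to 2.34.

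Notch1, the receptor required for T lineage commitment (ENSMUSG00000026923, chromosome 2, 26457903 to 26516663, minus strand), differed most between the genotypes at stage 0. Its levels were 26.2, 88.6 and 126 CPM in WT ST0 and 123, 367 and 411 CPM in Bcl6KO ST0. They were 107, 142 and 103 CPM in WT ST1 and 152, 240 and 159 CPM in Bcl6KO ST1. At stage 0 the lowest Bcl6KO library lay just under the highest WT library, and the other 2 lay above every library of the other 3 groups. At stage 1 every Bcl6KO library lay above every WT library.

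At stage 0 the log2 fold change of Notch1 was 1.90 (SE 0.54, a 3.74-fold higher level in Bcl6KO), with an edgeR unadjusted p of 0.00360 and an adjusted p of 0.170. At stage 1 it was 0.65 (SE 0.52, edgeR adjusted p = 1), and on average over the stages 1.27 (SE 0.37, 2.42-fold, unadjusted p = 0.00461, adjusted p = 0.229). DESeq2 called the stage 0 difference (adjusted p = 0.0207, range over the alternatives 0.0207 to 0.706) and the average (0.0499, range 0.0499 to 0.458). Between stages Notch1 went opposite ways in the 2 genotypes, 0.55 (SE 0.52) in WT and -0.71 (SE 0.52) in Bcl6KO. The difference of these effects was -1.26 (SE 0.74, edgeR adjusted p = 0.733). Of the exonic bases of Notch1, 9.76% are shared with the plus-strand genes 0610009E02Rik and Gm13568, and their part in the Notch1 difference was not tested. In Bcl6KO ST0 libraries 1, 2 and 3, 0610009E02Rik had 179, 0 and 75 counts and Gm13568 had 50, 0 and 195, where Notch1 had 617, 1935 and 2090. Both averaged highest in that group, at 16.8 ± 17.96 and 16.1 ± 19.9 CPM, against 2.96 ± 2.90 and 4.27 ± 4.85 CPM in WT ST0.

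Notch3, a receptor expressed by thymocytes around the pre-T cell receptor checkpoint (ENSMUSG00000038146, chromosome 17, 32120820 to 32166852, minus strand), was close to absent. It had 44 counts in all 12 libraries together and at most 2.37 CPM in any, in WT ST1 library 2. A count of 0, found in 2 Bcl6KO ST0 libraries, allows up to 3 counts, or 0.599 and 0.569 CPM in those libraries. These limits cover counting error only, since the libraries carry no molecular identifiers.

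Set side by side per kilobase of merged exon, the 2 abundant receptors changed order between groups. In WT ST0 Notch1 stood at 5.65 ± 3.55 and Notch2 at 5.69 ± 1.19 CPM per kilobase (SD, n = 3). In WT ST1 Notch1 stood at 8.25 ± 1.52 and Notch2 at 22.1 ± 0.719 CPM per kilobase, with Notch2 higher in each library. In Bcl6KO ST0 libraries 2 and 3 Notch1, at 25.8 and 28.9 CPM per kilobase, exceeded Notch2, at 3.605 and 3.652. In library 1 the order was reversed, at 8.66 for Notch1 and 18.7 for Notch2. In Bcl6KO ST1 Notch1 stood at 12.9 ± 3.42 and Notch2 at 18.3 ± 8.02 CPM per kilobase, and their ranges overlapped. Notch3 was at 0.131 CPM per kilobase or less on average in every group. In bulk libraries, fewer cells with a transcript and less transcript per cell cannot be told apart.

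Rbpj, which encodes the DNA-binding partner of all Notch receptors (ENSMUSG00000039191, chromosome 5, 53466152 to 53657362, plus strand), varied least of the 4 genes that reached 10 CPM on average in any group. It stood at 155, 86.0 and 73.8 CPM in WT ST0 and at 118, 119 and 118 CPM in WT ST1. In Bcl6KO ST0 it stood at 41.9, 74.5 and 87.2 CPM, and in Bcl6KO ST1 at 120, 57.2 and 104 CPM. All neighbouring groups in the order of means overlapped. The largest of its 4 pairwise differences, Bcl6KO against WT at stage 0, was -0.63 (SE 0.42, edgeR adjusted p = 0.524).

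RefSeq promoter windows on build GRCm38.p6, from 250 bases before to 50 bases after the start of transcription, were available for 7 of the 8 genes, in 8 windows. They were searched on both strands for the core word bound by RBPJ, TGGGAA, which reads TTCCCA on the other strand. It occurred in 3 of the 8 windows, 2 of them overlapping windows of Rbpj and the third that of Ptcra, and in 25.6% of all 32851 windows of the same length. TTCCTAGAA, a BCL6 word that does not overlap the first, occurred in none of the 8 windows and in 0.411% of all windows. The windows of Ptcra (chr17:46763663-46763962, minus strand) and Rbpj (chr5:53590096-53590395, plus strand) are shown because each holds the RBPJ word more than once. The 5′ to 3′ sequences are on the strand of the gene, with the word in capitals.
Ptcra promoter: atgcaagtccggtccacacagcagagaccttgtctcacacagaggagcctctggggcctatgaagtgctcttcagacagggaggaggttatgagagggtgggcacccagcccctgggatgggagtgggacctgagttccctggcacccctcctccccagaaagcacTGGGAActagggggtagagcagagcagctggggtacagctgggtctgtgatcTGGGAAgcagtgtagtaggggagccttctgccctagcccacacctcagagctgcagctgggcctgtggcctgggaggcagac
Rbpj promoter: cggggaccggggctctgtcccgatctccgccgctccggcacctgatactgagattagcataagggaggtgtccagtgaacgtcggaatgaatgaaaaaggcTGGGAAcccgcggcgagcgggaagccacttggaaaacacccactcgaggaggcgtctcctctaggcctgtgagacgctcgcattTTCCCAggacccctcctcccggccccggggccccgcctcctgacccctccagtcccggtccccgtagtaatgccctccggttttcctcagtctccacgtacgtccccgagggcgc
In Ptcra the words begin at -84 and -32 from the start, both as TGGGAA. In Rbpj they begin at -149 as TGGGAA and at -65 as TTCCCA. These matches describe letters in the windows and are not evidence of binding, which was not measured here.

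Ptcra, the alpha chain of the pre-T cell receptor and a Notch target of double-negative thymocytes (ENSMUSG00000036858, chromosome 17, 46755663 to 46763712, minus strand), was low in all groups. It stood at 6.16, 12.2 and 5.51 CPM in WT ST0, at 4.38, 5.53 and 4.51 CPM in WT ST1, at 5.39, 11.4 and 9.84 CPM in Bcl6KO ST0 and at 5.96, 6.76 and 8.19 CPM in Bcl6KO ST1. The Bcl6KO ST1 libraries all lay above the WT ST1 libraries, and the stage 0 groups overlapped. The fitted difference at stage 1 was 0.53 on the log2 scale (SE 0.84, edgeR adjusted p = 1). Between stages it was -0.72 (SE 0.85) in WT and -0.35 (SE 0.84) in Bcl6KO, with edgeR adjusted p of 0.920 and 0.881.

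Dtx1, a target gene for Deltex 1, a ubiquitin ligase that tempers Notch and T cell receptor signals (ENSMUSG00000029603, chromosome 5, 120680202 to 120711927, minus strand), had the widest range of group means among the 4 genes that reached 10 CPM on average in any group, 3.90 on the log2 scale. It stood at 1.39, 4.14 and 0.591 CPM in WT ST0 and at 13.7, 18.4 and 48.8 CPM in WT ST1. In Bcl6KO ST0 it stood at 18.6, 32.4 and 0.788 CPM, and in Bcl6KO ST1 at 18.7, 60.4 and 22.4 CPM. WT ST0 was low in all libraries and did not overlap with WT ST1. Of the Bcl6KO ST0 libraries 2 were at stage 1 levels and 1 was as low as WT ST0.

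The WT stage difference of Dtx1 was 3.71 (SE 1.2, a 13.1-fold higher level at ST1), with an edgeR unadjusted p of 0.00837 and an adjusted p of 0.350. In Bcl6KO it was 0.97 (SE 1.08, edgeR adjusted p = 0.709), and averaged 2.34 (SE 0.80, 5.06-fold, adjusted p = 0.133). Bcl6KO against WT at stage 0 stood at 3.07 (SE 1.17, edgeR unadjusted p = 0.0208, adjusted p = 0.262), and at stage 1 at 0.33 (SE 1.06, adjusted p = 1). DESeq2 called the WT stage difference (adjusted p = 0.0232, range over the alternatives 0.0232 to 0.834), the average (0.0231, range 0.0231 to 0.276) and the stage 0 genotype difference (0.0482, range 0.0482 to 0.861). Without WT ST0 library 2 the WT stage difference was 4.69, and without WT ST1 library 3 it was 2.97. The stage 0 genotype difference was 4.06 without WT ST0 library 2 and 2.23 without Bcl6KO ST0 library 2. The difference between the stage effects was -2.74 (SE 1.55, edgeR adjusted p = 0.718).

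Hes1, a repressor of the basic helix-loop-helix family and the classical Notch target (ENSMUSG00000022528, chromosome 16, 30064384 to 30067796, plus strand), was all but uncounted in Bcl6KO ST0. Its levels were 1.39, 4.53 and 10.8 CPM in WT ST0, 2.99, 2.57 and 6.36 CPM in WT ST1, and 4.97, 1.39 and 6.99 CPM in Bcl6KO ST1. In Bcl6KO ST0 the libraries had 0, 0 and 4 counts, the last being 0.788 CPM. Every Bcl6KO ST0 library lay below every other library, and the other 3 groups overlapped.

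The fitted log2 fold change of Hes1 was -4.29 (SE 1.54) between genotypes at stage 0, with an edgeR unadjusted p of 0.0152 and an adjusted p of 0.236, and 3.96 (SE 1.52, edgeR adjusted p = 0.211) between stages in Bcl6KO. In WT the stage difference was -0.49 (SE 1.31, edgeR adjusted p = 0.974), and the genotypes differed by 0.16 (SE 1.31, adjusted p = 1) at stage 1. DESeq2 called the stage 0 genotype difference (adjusted p = 0.0401, range over the alternatives 0.0401 to 0.409). The mean level in Bcl6KO ST0, 0.263 CPM, lies below what 3 counts give, so the sizes of these folds are uncertain. Without Bcl6KO ST0 library 3 they were -7.83 and 7.49, and without WT ST0 library 3 the first was -3.39. The test of whether its genotype effect differed between stages gave 4.45 (SE 1.98, edgeR adjusted p = 0.622).

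Nrarp, an ankyrin repeat protein that is induced by Notch and limits its signal (ENSMUSG00000078202, chromosome 2, 25180758 to 25183339, plus strand), was likewise uncounted in Bcl6KO ST0. It stood at 2.19, 2.95 and 0 CPM in WT ST0, at 3.59, 3.95 and 1.44 CPM in WT ST1, at 0 in all 3 Bcl6KO ST0 libraries and at 0.199, 1.79 and 3.79 CPM in Bcl6KO ST1. Against a floor of 3 counts per library (0.586 CPM on average in Bcl6KO ST0), the mean of WT ST0 was 2.92-fold higher and that of Bcl6KO ST1 3.29-fold higher. These ratios take the 2 means as observed and leave out their own error. Leaving out 1 library of WT ST0 moved the first ratio to between 1.86 (without library 2) and 4.38 (without library 3). Leaving out 1 library of Bcl6KO ST1 moved the second to between 1.70 (without library 3) and 4.76 (without library 1). WT ST0 library 3 and Bcl6KO ST1 library 1 themselves lay below the floor. Neither difference passed (edgeR adjusted p = 0.225 and 0.161). Of the genes tested, 3.94% had 0 counts in all Bcl6KO ST0 libraries, against 0.458% in WT ST0, 0.210% in WT ST1 and 0.376% in Bcl6KO ST1, so zeros were more frequent in that group throughout the transcriptome. How far the Hes1 and Nrarp values follow from this was not tested.

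The exon of Nrarp overlaps another gene. Of its exonic bases, 79.4% are covered by Gm38287 (chromosome 2, 25180781 to 25183339, minus strand), an antisense gene. The 2 genes had 100 and 120 counts over all libraries, were at 0 in the same 4 libraries, and differed by at most 10 counts in any library. Without knowledge of strand in the counting, reads from the shared bases cannot be told apart, and the Nrarp values are uncertain.

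**Figure D3:**
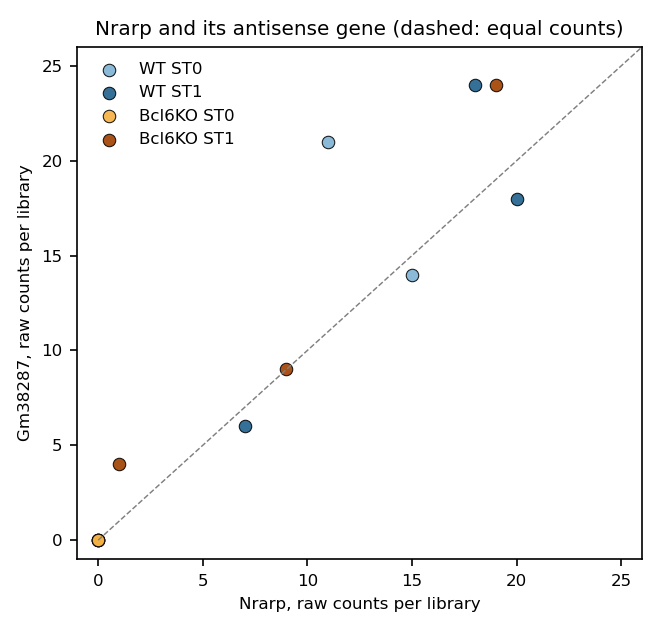
Raw counts of Nrarp (horizontal axis) against those of Gm38287, the antisense gene that covers most of it (vertical axis), for the 12 libraries coloured by group; the dashed line marks equal counts. The libraries lie within 10 counts of the line, and 4 of them, 3 of Bcl6KO ST0 and 1 of WT ST0, lie on top of each other at 0.

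Groups without overlap were counted for the 7 tested genes and for all genes. Between genotypes at stage 0 it was 1 of 7 (Hes1, lower), where 12.6% of all tested genes had none (4.67% higher and 7.95% lower). At stage 1 it was 2 of 7 (Notch1 and Ptcra, higher), against 13.3% of all genes (5.87% higher and 7.44% lower). Between stages it was 2 of 7 in WT (Notch2 and Dtx1, higher), against 21.5% (12.5% higher and 9.06% lower), and 2 of 7 in Bcl6KO (Hes1 and Nrarp, higher), against 17.5% (11.8% higher and 5.76% lower). For Nrarp the gap was 1 count (0.199 CPM) in Bcl6KO ST1 library 1 against 0 in Bcl6KO ST0, below the floor of 3 counts. The median log2 fold change of the 7 was 0.16, 0.16, 0.55 and 0.97 in these comparisons, beside -0.01, 0.02, 0.00 and 0.01 for all genes. The genotype comparisons and the stage comparisons share libraries. The 4 target genes did not move as 1 group: at stage 0 the Bcl6KO level was higher for Dtx1, lower for Hes1 and Nrarp and close to WT for Ptcra, all short of the test.

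**Figure D4:**
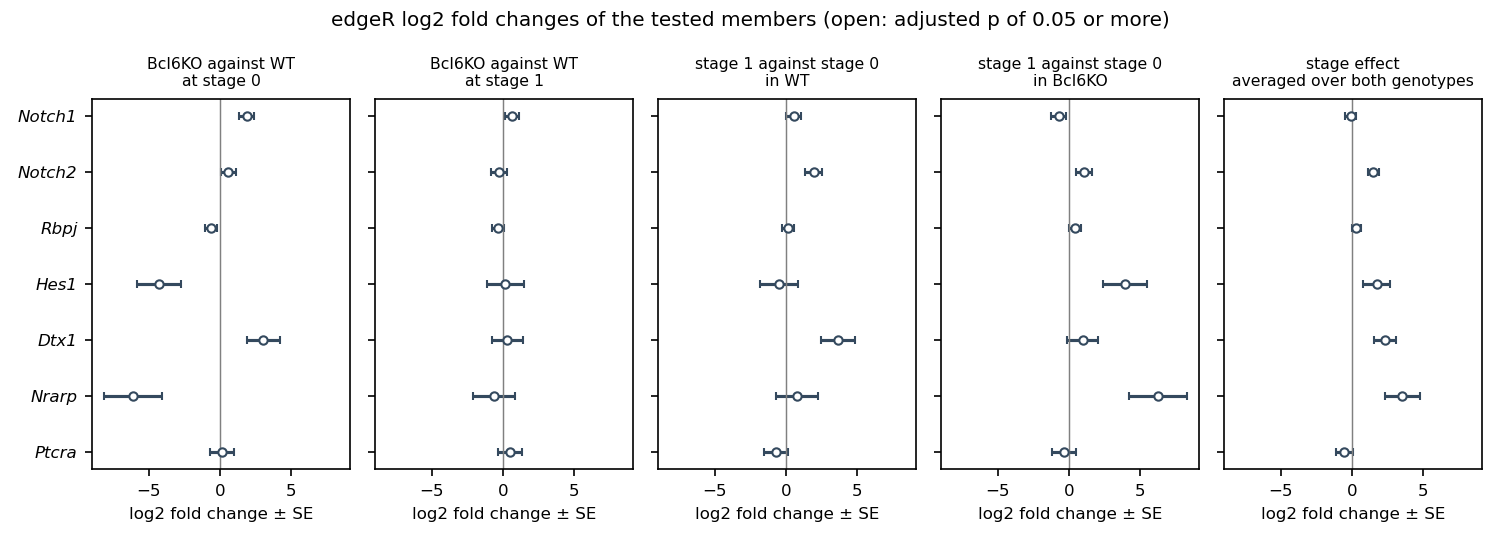
Log2 fold changes (horizontal axis) with their standard errors for the 7 tested genes, in the 4 pairwise comparisons and for the averaged stage effect, from edgeR. No point is filled, since none had an adjusted p under 0.05, and the errors are widest for Nrarp and Hes1.

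The rest of the pathway was read from a list of 72 genes, of which 60 were tested. Between genotypes 0 of 60 passed at stage 0, at stage 1 and on average (edgeR, with 5, 1 and 5 at an unadjusted p under 0.05). Of all 15704 genes, 2309, 404 and 1714 had such a p. In WT 1 fell between stages and none rose (1.67%, against 0.433% of all genes), in Bcl6KO 1 fell and none rose (1.67%, against 0.675%), and averaged over the genotypes 2 rose and 4 fell (10%, against 3.46%). The median log2 fold change of the averaged stage effect was 0.04 over the list and 0.03 over all genes.

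Lef1, a Wnt-pathway factor listed among Notch targets, fell from 2849 ± 994 to 423 ± 180 CPM between WT stages (log2 fold change -2.75, SE 0.38, edgeR adjusted p = 0.00484). In Bcl6KO it stood at 2988 ± 510 and 1157 ± 394 CPM. Averaged, Lef1 fell by 2.06 (SE 0.26, edgeR adjusted p = 0.00103), and of its exonic bases 13.7% are shared with another gene. Igf1r, the insulin-like growth factor receptor and a Notch1 target in T cell leukaemia, fell by 2.34 on average (SE 0.51, edgeR adjusted p = 0.0264), from 54.3 ± 29.7 to 14.4 ± 4.96 CPM in WT and from 81.5 ± 50.6 to 12 ± 7.17 CPM in Bcl6KO. Of the 13 target genes tested, these 2 fell and none passed as higher, beside 1.42% and 2.04% of all genes. Heyl and Hey1, repressors related to the HES family and named after their values were seen, had the largest positive effects of this role, 4.06 (SE 1.60) and 3.43 (SE 1.41), with edgeR adjusted p of 0.205 and 0.214. In WT ST0, WT ST1, Bcl6KO ST0 and Bcl6KO ST1 Heyl averaged 0.328, 2.515, 0 and 0.9275 CPM. Hey1 averaged 3.08, 22.55, 0.131 and 2.45 CPM. Both lay below what 3 counts give in Bcl6KO ST0, and Heyl also in WT ST0, so the sizes of these effects are uncertain. Cd3e, the most abundant target after Lef1 and a chain of the T cell receptor complex, stood at -0.17 (SE 0.19, edgeR adjusted p = 0.721).

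Among the glycosyltransferases and the protease that mature the receptors, Lfng rose and the other 5 of 6 did not pass. Lfng, a fringe enzyme that shifts the preference of Notch for its ligands, went from 8.20 ± 9.77 to 33.9 ± 14.3 CPM in WT and from 0.775 ± 0.369 to 24.9 ± 4.37 CPM in Bcl6KO (average 3.50, SE 0.81, edgeR adjusted p = 0.0325). Mfng, a second fringe enzyme, stood at 0.82 (SE 0.49) and Poglut1, which adds glucose to Notch, at 0.94 (SE 0.51), with edgeR adjusted p of 0.414 and 0.355.

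Of 7 tested genes of receptor cleavage none passed. In the averaged stage effect 1 had an edgeR unadjusted p under 0.05, as did 2873 of all 15704 genes. Adam17 and Adam10, the metalloproteases of the outer cut, stood at -0.70 (SE 0.45) and 0.96 (SE 0.30) in the averaged stage effect, with edgeR adjusted p of 0.457 and 0.104. Of 11 genes of trafficking and turnover, Aak1 rose, a kinase of clathrin-mediated endocytosis, from 508 ± 57.3 to 914 ± 88.3 CPM in WT and from 525 ± 110.5 to 887 ± 116 CPM in Bcl6KO (average 0.80, SE 0.16, edgeR adjusted p = 0.0159). Dtx3l, a relative of Dtx1, stood at 0.25 (SE 0.23, edgeR adjusted p = 0.624).

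In the nucleus, Maml2, a Mastermind coactivator, fell, while 6 of 7 coactivators did not pass. It went from 115 ± 21.4 to 66.4 ± 10.8 CPM in WT and from 215 ± 111 to 51.3 ± 8.41 CPM in Bcl6KO. The log2 fold change was -2.07 in Bcl6KO (SE 0.41, edgeR adjusted p = 0.0469) and -1.43 on average (SE 0.29, adjusted p = 0.0172). Ep300, a histone acetyltransferase recruited by Mastermind, stood at -0.06 (SE 0.18, edgeR adjusted p = 0.909). None of 9 tested corepressors passed. In the averaged stage effect 1 had an edgeR unadjusted p under 0.05, as did 2873 of all 15704 genes. Ncor1, the most abundant, stood at -0.51 (SE 0.18, edgeR adjusted p = 0.155) and the demethylase gene Kdm5a at 0.05 (SE 0.23, adjusted p = 0.948). Tle3, a Groucho corepressor used by HES proteins, fell from 335 ± 104 to 142 ± 24.2 CPM in WT and from 267 ± 44.5 to 135.5 ± 57.9 CPM in Bcl6KO (average -1.11, SE 0.26, edgeR adjusted p = 0.0321). Tle4, another of the family, stood at 1.03 (SE 0.36, adjusted p = 0.140).

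None of the 3 tested genes among the other receptor and the ligands passed, and 3 ligands were too low to test. Dll4, the ligand that thymic epithelium presents, had 0 counts in all 12 libraries, and Dll1 and Dll3 averaged 0.132 CPM or less in every group. Jag1, another ligand, stood at 3.22 ± 5.57, 15.97 ± 19.6, 0.131 ± 0.227 and 1.46 ± 2.01 CPM in WT ST0, WT ST1, Bcl6KO ST0 and Bcl6KO ST1, and its averaged stage effect was 2.78 (SE 1.46, edgeR adjusted p = 0.344). Jag2, a close relative, stood at 0.33 (SE 0.73, edgeR adjusted p = 0.876). Hes5 averaged 0.592 CPM or less in every group and was not tested.

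Calls of these pathway genes differed in how far they held. Lef1 and Aak1 passed without any 1 of the 12 libraries. Maml2 on average was lost without WT ST1 library 1 or 2 or Bcl6KO ST1 library 3 (edgeR adjusted p up to 0.0611), and in Bcl6KO it passed without Bcl6KO ST0 library 1 or 3 and was lost without any of the other 10 (up to 0.147). With only the groups compared in the fit it was also lost (edgeR adjusted p = 0.182, range over the alternatives 0.0001 to 0.182). Lfng passed without WT ST0 library 1 or 3 or Bcl6KO ST0 library 2 and was lost without any of the other 9 (up to 0.0955). Igf1r was lost without WT ST0 library 3, any WT ST1 library, Bcl6KO ST0 library 3 or Bcl6KO ST1 library 1 or 3 (up to 0.0844). Tle3 was lost without those and without WT ST0 library 1 (up to 0.0981).

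**Figure D5:**
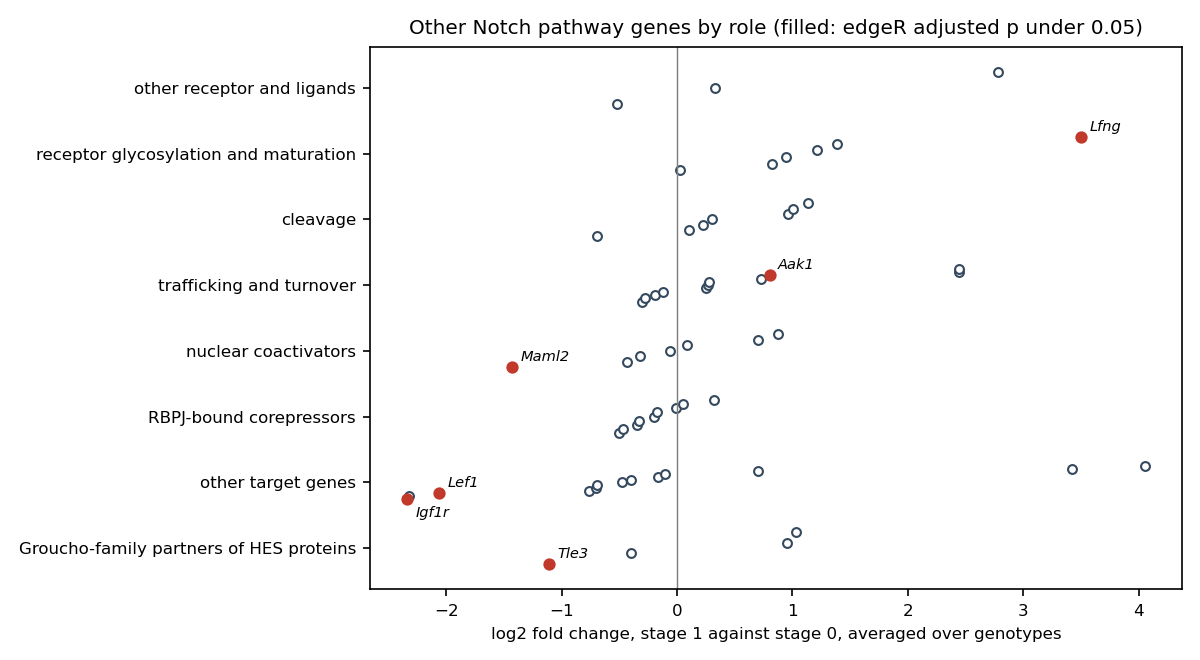
Averaged stage effect (horizontal axis, log2 fold change of stage 1 against stage 0) of the 60 tested pathway genes, grouped by role (rows); filled points had an edgeR adjusted p under 0.05. Lfng and Aak1 lie above 0, and Maml2, Igf1r, Lef1 and Tle3 below.

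For the 3 members with the widest range of group means among the 4 that reached 10 CPM in any group, the genes with the most similar profiles were found by the root mean square difference of centred log2 CPM over the 12 libraries, among 8376 protein-coding genes averaging at least 10 CPM (predicted models and receptor segments left out). For Dtx1 these were Rabepk (0.811), Flt3l (0.828) and Slc16a10 (0.889), which encode a Rab effector, the FLT3 ligand and an amino acid transporter. For Notch1 they were Smarcc2 (0.453), Mcm5 (0.458) and Ociad1 (0.474), a chromatin remodelling subunit, a replication helicase subunit and a mitochondrial and endosomal protein. For Notch2 they were Gbp7 (0.498), a guanylate-binding protein, Ankzf1 (0.501) and Ammecr1 (0.511).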

How the data were processed

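The authors deposited raw counts per gene, 1 file per library, and the submitters' processing notes name the build mm10 and the tools DESeq, Bowtie2, TopHat2 and bcl2fastq. The sources used here do not give the tool that counted reads, its annotation or strand setting. Of 48672 IDs, 48312 had a symbol in GENCODE M21 (also mm10), the source of coordinates, merged exon lengths and the share of exonic bases covered by other genes; IDs without a symbol held 0.195% to 0.366% of counts and stayed in the tests. Tle5 was found under its older symbol Aes.

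Counts were fitted with edgeR 4.0.16 in R 4.3.3, after filterByExpr by group (15704 genes) and TMM scaling, 1 mean per group in a single fit of the 12 libraries, and robust dispersions (8 residual degrees of freedom, common biological coefficient of variation 0.835). Each standard error was taken as the absolute log2 fold change over the root of the F statistic. DESeq2 1.42.0 was an alternative. The procedure was also run on simulated counts, drawn independently for each library from the mean over all libraries and the fitted dispersions. Those counts held neither the Sp100 excess nor the extra zeros of Bcl6KO ST0, so that run does not bear on them. Between libraries of a group, chi-square per gene ranged from 30.6 to 188, so none agreed within sampling noise (about 1). Deviations of same-numbered libraries correlated at -0.0750 to 0.120, which cannot exclude pairing, and no block was used in the main fit.

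The 8 genes and all lists were chosen with earlier results of these data known. Named were the 8 genes, every listed pathway gene past the threshold in any comparison and, per role, the 2 with the highest mean level. Dll1, Dll3, Dll4, Hes5, Hey1 and Heyl were named after their values were seen.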

Additional observations from a re-analysis of the deposited data

How the results depend on the processing

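Of 808 log2 fold changes of the 7 tested members under 17 alternative settings, 776 kept their direction and their side of the threshold, 13 passed only under the alternative (7 of Notch2, 3 of Dtx1, 2 of Notch1, 1 of Hes1) and 19 changed sign, all of them uncalled. DESeq2 called 3 members between genotypes at stage 0, 1 on average, 2 between WT stages and 2 for the averaged stage effect. It called 950, 20 and 450 genes between genotypes (stage 0, stage 1, average), 376, 1309 and 1495 between stages (WT, Bcl6KO, average) and 130 for their difference, against 3, 0, 1, 68, 106, 544 and 0 in edgeR. With no filter on low counts 1 member (Notch2) passed for the averaged stage effect, and the numbers of genes were 103, 11, 88, 142, 309, 830 and 7 in the same order. With only the groups compared in the fit, 1 member (Notch2) passed between WT stages, and 0 genes passed between genotypes at stage 0 and 3 between Bcl6KO stages.

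With a replicate block 1 gene passed between genotypes at stage 0 and 39 between Bcl6KO stages, and the signs of Dtx1 between genotypes at stage 1 (-0.14) and Notch1 in the averaged stage effect (0.11) turned. The block also ended the calls of Lfng in the averaged stage effect (edgeR adjusted p = 0.0512, range over the alternatives 6.9e-05 to 0.0955) and of Maml2 in Bcl6KO (0.0878, range 0.0001 to 0.182). Whether a shared number marks a shared pool of mice is not in the labels. Correlations of deviations in the 18 same-numbered pairs ran from -0.0750 to 0.120, against -0.227 to 0.160 in the other pairs. Of 12 libraries, 5 correlated best with their own number. With 3 libraries per group, these correlations cannot exclude pairing. The cause of the differences between the fits was not tested.

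Without any 1 library the members called ranged from 0 to 1 in each stage comparison and the averaged stage effect. Genes called ranged from 0 to 133, 0 to 1 and 0 to 62 between genotypes (stage 0, stage 1, average) and from 20 to 139, 7 to 277 and 193 to 708 between stages (WT, Bcl6KO, average). Signs turned within these ranges: between genotypes at stage 0, Ptcra (-0.072 to 0.56) and Notch2 (-0.66 to 0.97). At stage 1 they were Hes1 (-0.32 to 0.67) and Dtx1 (-0.40 to 1.06), and on average Notch2 (-0.47 to 0.35). Between WT stages they were Rbpj (-0.017 to 0.54) and Hes1 (-0.99 to 0.43), and in the averaged stage effect Notch1 (-0.31 to 0.17). For the difference between genotype effects they were Notch2 (-1.30 to 0.38), Rbpj (-0.081 to 0.55) and Ptcra (-0.015 to 0.61). Where 1 library was left out of a group, the remaining 2 were assumed to vary like the other groups. Notch3, Nrarp and Hes1 had libraries at 0 counts, among them the one with the most counts (Bcl6KO ST0 library 2, 8038717). That library also had the fewest genes detected, 14860, and the largest Sp100 share, 23.9%. After TMM scaling, 3 counts gave 0.569 CPM in it, against 0.590 to 0.615 in the others.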
